A study of Mus musculus with 9 samples.

Results

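The genes described here are those of de novo fatty acid synthesis, the pathway that builds fatty acids from acetyl-CoA in the liver. The rule takes them by name and uses no measured value, although earlier results of these data were known when it was set. They are the 10 genes Srebf1, Mlxipl, Acly, Me1, Acaca, Acacb, Fasn, Scd1, Thrsp and Pnpla3. All 10 were found among the 52151 entries of the deposited gene table, of which 26350 carry a gene name and a known transcript. Expression was given as FPKM, the fragments of a transcript scaled to its length in kilobases and to the mapped fragments of the library, so levels can be compared between genes.

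Liver RNA was measured in 9 mice, 1 library each, by RNA-seq of strand-specific libraries depleted of ribosomal RNA. The pair-fed group (PF, n = 3) received a liquid control diet matched for calories, and the alcohol-fed group (AF, n = 3) received the Lieber-DeCarli diet, a liquid diet in which ethanol supplies part of the energy. The third group (AF with MNA, n = 3) received the Lieber-DeCarli diet together with intraperitoneal MNA at 50 mg/kg, a compound that the labels name only by this abbreviation. All mice were labelled as 8 weeks old, and feeding lasted 5 weeks. The strain is C57BL/6 for the PF and AF mice, whereas the labels of the MNA-treated mice 1, 2 and 3 read C57BL/7, C57BL/8 and C57BL/9. The study's methods, which describe the PF and AF mice only, give male C57BL/6J mice that were fasted before death, so those livers do not show the fed state.

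In the liver, citrate leaves the mitochondria and is cleaved to acetyl-CoA, which is carboxylated to malonyl-CoA and then extended to palmitate with NADPH as the reductant. Transcription of these enzymes is driven after a meal by SREBP-1c, which responds to insulin, and by ChREBP, which responds to sugar metabolites, and both activities fall during fasting. Fat accumulates in hepatocytes in alcohol-related liver disease, and lipogenic gene expression is therefore often measured in its models.

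Promoter sequence is shown for 3 of the genes: Me1, the only one past the threshold used here in AF against PF, Fasn, the enzyme that makes palmitate, and Mlxipl, which holds the only sterol regulatory element found. Windows reach from 250 bases before to 50 bases after a RefSeq start, 5' to 3' on the strand of the gene, in build GRCm38.p6. In all, 4 motifs were searched on both strands, and matches are in capitals. In Me1 the capitals mark the core of an antioxidant response element, in Fasn they mark CCAAT boxes read on either strand, the last pair of which overlap, and in Mlxipl they mark the sterol regulatory element.
Me1, chr9:86695865-86696164, minus strand: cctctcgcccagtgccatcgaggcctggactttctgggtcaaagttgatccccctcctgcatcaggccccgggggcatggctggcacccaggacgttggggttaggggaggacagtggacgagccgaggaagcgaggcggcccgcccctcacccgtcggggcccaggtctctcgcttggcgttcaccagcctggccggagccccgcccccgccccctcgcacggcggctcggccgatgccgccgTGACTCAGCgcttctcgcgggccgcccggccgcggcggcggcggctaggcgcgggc
Fasn, chr11:120824498-120824797, minus strand: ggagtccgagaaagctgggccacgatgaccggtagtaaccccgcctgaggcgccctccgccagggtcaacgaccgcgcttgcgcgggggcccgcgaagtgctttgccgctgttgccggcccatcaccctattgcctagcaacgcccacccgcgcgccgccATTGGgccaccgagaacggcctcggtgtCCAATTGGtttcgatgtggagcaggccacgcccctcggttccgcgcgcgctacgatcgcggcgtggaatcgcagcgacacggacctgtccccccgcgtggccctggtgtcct
Mlxipl, chr5:135106641-135106940, plus strand: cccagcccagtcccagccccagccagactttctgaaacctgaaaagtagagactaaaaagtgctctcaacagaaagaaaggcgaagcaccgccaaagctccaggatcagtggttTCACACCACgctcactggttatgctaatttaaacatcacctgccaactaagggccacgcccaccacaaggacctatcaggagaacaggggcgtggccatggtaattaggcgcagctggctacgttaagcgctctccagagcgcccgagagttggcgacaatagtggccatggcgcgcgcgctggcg

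The antioxidant response element core TGACNNNGC, whose match in Me1 begins 6 bases before the start, was found in 12.4% of the 32851 mouse promoter windows of the same length. It was found in 1 of the 13 windows that cover 9 of the lipogenic genes. The CCAAT box, the binding sequence of NF-Y, was found in 9 of these 13 windows, which belong to 8 genes, against 37.4% of all windows. Fasn holds 3 of them, at 90, 62 and 59 bases before the start. The sterol regulatory element TCACNCCAC was found in 1.24% of all windows and, among these genes, in 1 window of Mlxipl, 136 bases before the start. The E-box CACGTG was found in 7.15% of all windows and in the other Mlxipl window, chr5:135089640-135089939, at 98 bases before the start. A match is a description of the sequence and was not tested for binding.

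Reads recovered from the circRNA table numbered 57800660 to 82179248 per library. The summed FPKM of the 5 hepatocyte markers found (among them Alb, the gene of serum albumin) was 14753 to 20019 in PF, 13258 to 20357 in AF and 18110 to 20435 in AF with MNA. The adipocyte markers Adipoq and Plin1 were under 0.1 FPKM in every library, and the summed adipocyte markers reached at most 1.04 FPKM. Replicate 3 of AF and replicate 1 of AF with MNA held more RNA of introns than the others, with 9433 and 8934 summed FPKM of lncRNA transcripts assembled inside introns, against 2477 to 4937 in the other 7 libraries. Their part in the results was not tested beyond leaving them out.

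Levels of the 10 genes covered a wide range. Scd1, the stearoyl-CoA desaturase that makes oleate, was by far the highest, with 1643 ± 1066 FPKM in PF (SD, n = 3). Scd1 supplied between 71.0% and 86.9% of the summed FPKM of the 10 genes in each library. Fasn followed with 89.0 ± 41.5 FPKM in PF and Me1 with 56.5 ± 11.2. Thrsp, Acly, Srebf1 and Mlxipl lay between 36.1 and 23.4 FPKM on average in PF, Acacb was at 13.0 and Acaca at 10.5. Fasn and Me1, Acacb and Acaca, and the neighbours in the order from Thrsp to Mlxipl differed by less than the SD of the higher one in PF. Pnpla3 was the lowest, with 0.26 ± 0.18 FPKM in PF.

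**Figure D1:**
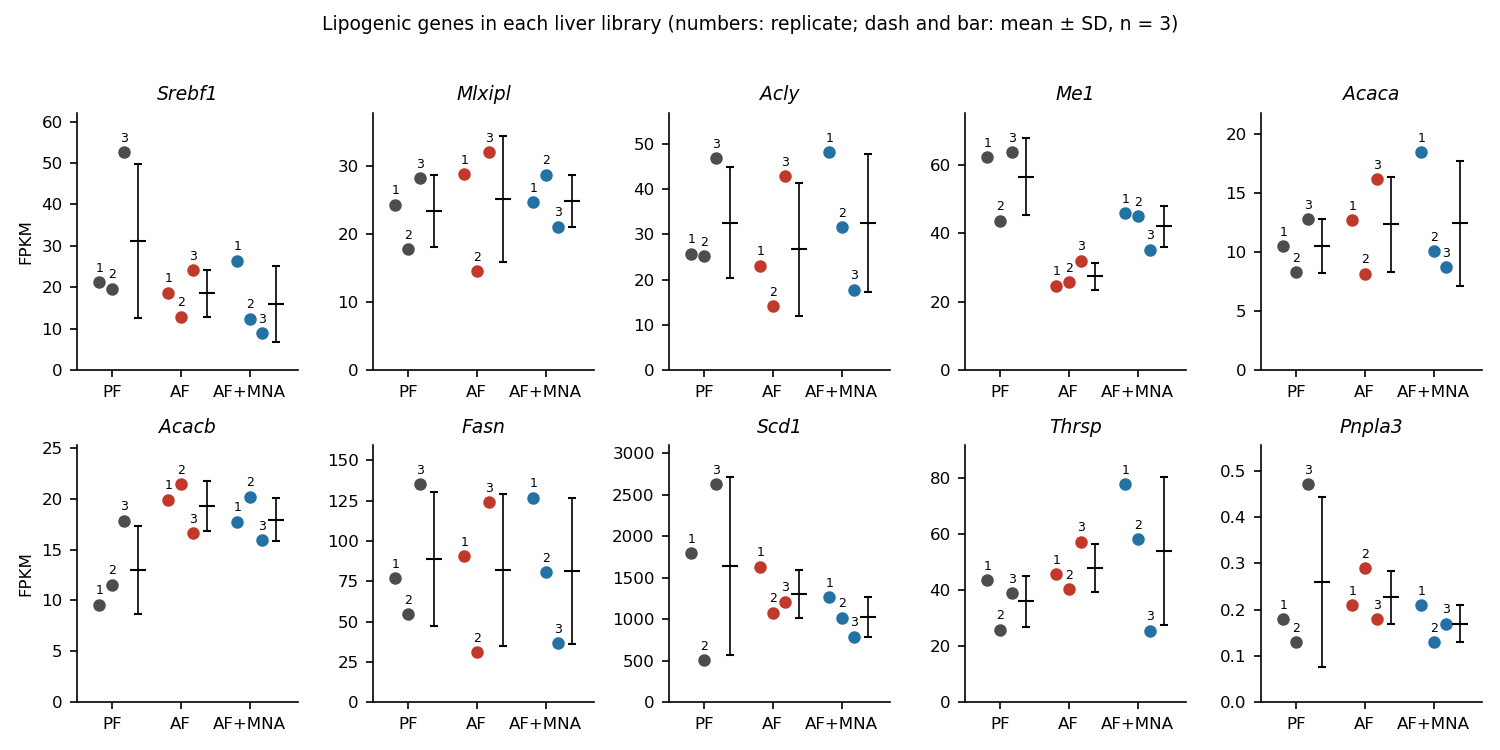
FPKM of the 10 lipogenic genes in each library of PF (grey), AF (red) and AF with MNA (blue), with the replicate number above each point and the mean ± SD of the 3 libraries at its right. Each vertical axis starts at 0 and has its own scale; Me1 is the only gene whose AF libraries all lie below its PF libraries.

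The comparison of AF with PF asks how the alcohol diet was associated with hepatic RNA levels. Of the 9 lipogenic genes tested, 1 passed the threshold used here, an unadjusted limma p under 0.05 with a log2 fold change (log2 FC) above 1 or below -1. The study's methods state this limit for lncRNAs and with p from another tool, Ballgown. This log2 FC was taken from the mean FPKM of each group. That gene was Me1, which was lower in AF. Over all 12273 genes tested 4.29% passed this threshold in either direction and 2.35% passed it as lower in AF. Without AF replicate 3 the number past it rose from 527 to 764, and the number lower from 288 to 484. The groups did not overlap for 1 of the 9 genes, against 18.3% of all genes. Of the 9, 5 were lower on average and 4 higher, with a median log2 FC of -0.12 against -0.03 over all genes tested. None of the 9 had an adjusted p under 0.05 by limma with Benjamini-Hochberg adjustment, and 2 had an unadjusted p under 0.05, against 11.7% of all genes. With 3 libraries against 3, an exact permutation test of a single gene cannot give a p below 0.1.

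Me1 encodes cytosolic malic enzyme, which turns malate into pyruvate and yields NADPH for fatty acid synthesis. It spans chr9:86581371-86695953 on the minus strand of GRCm38. Its level was 62.2, 43.7 and 63.7 FPKM in PF, then 24.69, 25.70 and 32.01 in AF, with 45.9, 44.9 and 35.1 in AF with MNA. Every AF library was below every PF library and below every library of AF with MNA, while the PF and MNA-treated libraries overlapped. From PF to AF the mean fell from 56.5 ± 11.2 to 27.5 ± 3.97 FPKM (SD, n = 3), a log2 FC of -1.04. By limma the coefficient on log2(FPKM + 1) was -1.004 ± 0.195 (SE; 95% interval -1.472 to -0.536), with an unadjusted p of 0.00163 and an adjusted p of 0.125. When any 1 of PF replicate 1, PF replicate 3, AF replicate 1 or AF replicate 2 was left out, the log2 FC lay just inside the limit, between -0.995 and -0.947, and the threshold was no longer passed. Without AF replicate 3, the intron-rich AF library, it was -1.17 and past the threshold. In bulk liver, fewer cells of a type and less RNA per cell cannot be told apart.

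A separate entry carrying the name Me1 but made only of assembled transcripts was at 1.22, 1.63 and 1.62 FPKM in PF, at 0, 0 and 0.53 in AF, and listed at 0 in all 3 libraries of AF with MNA. It was above 0 in every PF library and was kept out of the tests. Acly, the ATP citrate lyase that makes cytosolic acetyl-CoA, stands beside Me1 in the supply of substrate. Its level was 25.8, 25.2 and 46.9 FPKM in PF, then 23.1, 14.1 and 42.8 in AF, with 48.2, 31.6 and 17.8 in AF with MNA. PF replicate 3, AF replicate 3 and replicate 1 of AF with MNA were the highest of their groups, and the 3 groups overlapped. The log2 FC of AF against PF was -0.29, with a 95% interval of the limma coefficient from -1.38 to 0.67 and an adjusted p of 0.794.

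Among the transcription factors, Srebf1 encodes SREBP-1, and the gene table gives 1 value for its SREBP-1a and SREBP-1c transcripts together. Its level was 21.3, 19.7 and 52.6 FPKM in PF, then 18.7, 12.9 and 24.2 in AF, with 26.4, 12.4 and 8.94 in AF with MNA. PF replicate 3 stood far above the other 8 libraries, and the 3 groups overlapped. The log2 FC was -0.75 in AF against PF and -0.97 in AF with MNA against PF, with adjusted p of 0.613 and 0.479 by limma. Without replicate 1 of AF with MNA, one of the 2 intron-rich libraries, Srebf1 passed the threshold in the latter comparison, with a log2 FC of -1.54 and an unadjusted p of 0.0339. Without PF replicate 3, the highest library, the log2 FC was -0.14 in AF against PF and -0.36 in AF with MNA against PF.

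Mlxipl encodes ChREBP, the carbohydrate response element binding protein. It was at 24.3, 17.8 and 28.2 FPKM in PF, at 28.7, 14.55 and 31.97 in AF, and at 24.6, 28.7 and 21.0 in AF with MNA. All 3 groups overlapped widely. The log2 FC was 0.10 in AF against PF (95% interval of the limma coefficient -0.72 to 0.82, adjusted p 0.972), and its sign turned when PF replicate 2, AF replicate 1 or AF replicate 3 was left out.

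The acetyl-CoA carboxylases make malonyl-CoA, Acaca in the cytosol for synthesis and Acacb at the mitochondria, where malonyl-CoA restrains fatty acid oxidation. Acacb was at 9.58, 11.6 and 17.8 FPKM in PF, at 19.9, 21.4 and 16.6 in AF, and at 17.7, 20.2 and 15.9 in AF with MNA. PF replicates 1 and 2 lay below all AF libraries and PF replicate 3 lay within them. The log2 FC of AF against PF was 0.57, with a 95% interval of the limma coefficient from 0.01 to 1.13, an unadjusted p of 0.0467 and an adjusted p of 0.417, so it did not pass the threshold. It was 0.39 without PF replicate 1 and 0.87 without PF replicate 3.

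Acaca was at 10.5, 8.28 and 12.8 FPKM in PF, at 12.7, 8.17 and 16.2 in AF, and at 18.45, 10.1 and 8.74 in AF with MNA. The groups overlapped, and the 2 intron-rich libraries were the highest of their groups. The log2 FC of AF against PF was 0.23 (adjusted p 0.832 by limma), and without AF replicate 3 it was -0.01. A further 2 entries with the name Acaca were made only of assembled transcripts. One was above 0 in a single library, at 1.61 FPKM in replicate 1 of AF with MNA, and the other was between 1.13 and 4.04 FPKM.

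Fasn encodes fatty acid synthase. Its level was 77.2, 54.8 and 135 FPKM in PF, then 90.7, 31.2 and 124 in AF, with 127, 80.6 and 36.9 in AF with MNA. Within each group the highest library was 2.47, 3.98 and 3.45 times the lowest, in this order, and the group means of 89.0, 82.0 and 81.5 FPKM were closer to each other than the libraries of any group. The 95% interval of the limma coefficient of AF against PF reached from -1.57 to 1.12, so both a coefficient of -1 and one of 1 were inside it.

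Scd1 was at 1799, 507 and 2623 FPKM in PF, then 1634, 1078 and 1213 in AF, with 1268, 1020 and 791 in AF with MNA. The lowest and the highest of the 9 libraries were both in PF, where the highest was 5.17 times the lowest, against 1.51 times in AF and 1.60 times in AF with MNA. The log2 FC was -0.33 in AF against PF (95% interval of the limma coefficient -1.49 to 1.38, adjusted p 0.984) and -0.68 in AF with MNA against PF (adjusted p 0.815). Without PF replicate 2 the latter passed the threshold, at -1.11 with an unadjusted p of 0.0131, and without PF replicate 3 it was -0.17 with an unadjusted p of 0.9. Scd1 has close paralogs, and the treatment of reads that match several of them is not given in the sources used here.

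Thrsp encodes Spot 14, a small protein that accompanies lipogenesis. It was at 43.5, 26.0 and 38.9 FPKM in PF, at 45.8, 40.4 and 57.2 in AF, and at 77.6, 58.2 and 25.5 in AF with MNA. The groups overlapped, and the lowest and highest values both came from AF with MNA. The log2 FC was 0.40 in AF against PF and 0.58 in AF with MNA against PF, with adjusted p of 0.557 and 0.674 by limma. The first was 0.22 without PF replicate 2 and 0.25 without AF replicate 3. The second was 0.21 without replicate 1 of AF with MNA and 0.91 without its replicate 3.

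Pnpla3 encodes a lipid droplet protein whose gene is known as an SREBP-1c target. It was at 0.18, 0.13 and 0.47 FPKM in PF, at 0.21, 0.29 and 0.18 in AF, and at 0.21, 0.13 and 0.17 in AF with MNA. Its mean was below the minimum of 0.5 FPKM in every comparison, and it was not tested.

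**Figure D2:**
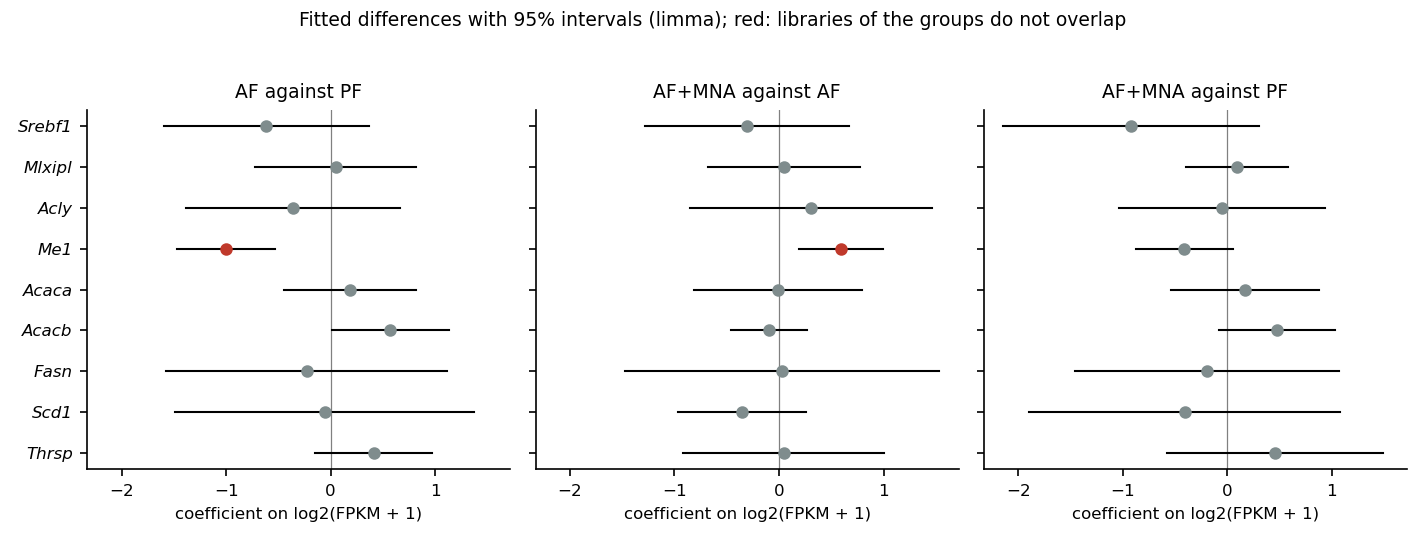
Limma coefficients on log2(FPKM + 1) with 95% intervals for the 9 tested genes in AF against PF, AF with MNA (AF+MNA) against AF and AF with MNA against PF, with red marking groups whose libraries do not overlap. Only Me1 is red, at -1.004 in AF against PF and at 0.59 in AF with MNA against AF; the intervals of Fasn include 0 in every panel.

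The comparison of AF with MNA against AF asks what the injected compound was associated with under the same diet. None of the 9 genes passed the threshold by limma, against 1.98% of the 12219 genes tested in either direction and 0.949% as lower, and 1 of the 9 had an unadjusted p under 0.05. The gene with that p was Me1, and 5.21% of all genes had such a p. Without AF replicate 3 the number of all genes past the threshold rose from 242 to 367, and the number higher from 126 to 234. Without replicate 1 of AF with MNA the number lower rose from 116 to 179. The mean of Me1 was 27.5 ± 3.97 FPKM in AF and 42.0 ± 5.94 in AF with MNA (SD, n = 3), a log2 FC of 0.61 that is under the limit of 1. The limma coefficient was 0.59 ± 0.17 (SE; 95% interval 0.190 to 0.997), with an unadjusted p of 0.0108 and an adjusted p of 0.94. The groups did not overlap for 1 of the 9 genes, against 10.1% of all genes. The median log2 FC of the 9 was -0.01, and that of all genes was 0.01.

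For the other 8 genes the log2 FC of AF with MNA against AF lay between -0.35 for Scd1 and 0.29 for Acly. Their intervals differed in width. For Acacb the 95% interval of the limma coefficient was -0.46 to 0.27, whereas for Fasn it was -1.47 to 1.54. The strain labels differ between these 2 groups as given above, so treatment and labelled strain cannot be told apart. The same holds against PF. The labelled numbers rise with the replicate number, and whether the strains themselves differ is not known.

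Against PF, AF with MNA had none of the 9 genes past the threshold by limma, against 3.88% of the 12281 genes tested in either direction and 1.95% as lower. None of the 9 had an unadjusted limma p under 0.05, against 14.5% of all genes. None of the 9 genes had groups that did not overlap, against 21.4% of all genes. Me1 had a log2 FC of -0.43, with 95% limits of the coefficient at -0.88 and 0.06 and an adjusted p of 0.407. Acacb had a log2 FC of 0.47 (adjusted p 0.419). Each pair of the 3 comparisons shares a group of libraries, so their values are not independent.

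The libraries of a group differed from each other in the same direction for most of these genes. PF replicate 3 was the highest PF library for 9 of the 10 genes and PF replicate 2 the lowest for 9. AF replicate 3 was the highest AF library for 7 genes and AF replicate 2 the lowest for 7, and in AF with MNA replicate 1 was the highest for 8 and replicate 3 the lowest for 9. Averaged over the 9 genes tested, log2(FPKM + 1) deviated from the group mean by 0.50 in PF replicate 3 and by -0.48 in PF replicate 2. The average deviation was 0.34 and -0.44 in AF replicates 3 and 2, and 0.45 and -0.51 in replicates 1 and 3 of AF with MNA. The median deviation over all tested genes was between -0.08 and 0.06 in the 9 libraries. AF replicates 2 and 3 were at these ends, with 34.2% and 61.6% of all tested genes above the group mean. Me1 and Acacb, with CVs of 14.4% and 12.7% in AF, varied less within AF than Fasn and Acly, with 57.4% and 55.1%.

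**Figure D3:**
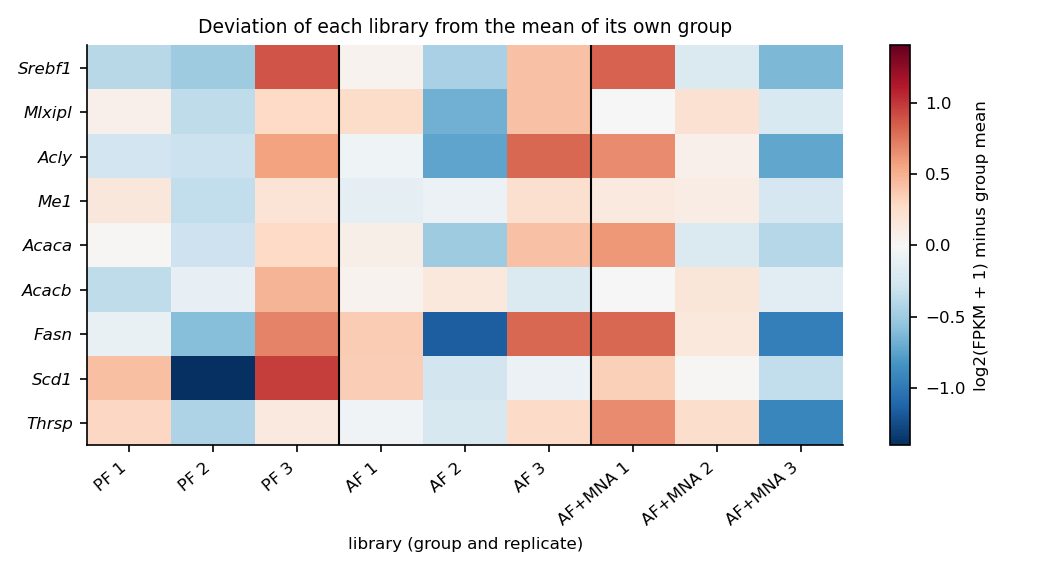
Deviation of log2(FPKM + 1) of the 9 tested genes (vertical axis) from the mean of the library's own group, in each library (horizontal axis), red above and blue below that mean. PF replicate 2 and replicate 3 of AF with MNA are below their group mean in all 9 genes, and PF replicate 3 is above it in all 9.

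Beside this shared deviation, AF replicate 2, low in most of the lipogenic genes, held the highest level of 2 genes known to be induced by fasting. These 2 were picked from a list of 10 such genes after their values were seen. The others of the list were not compared by library. Pdk4, which restrains pyruvate oxidation, was at 0.76, 24.0 and 1.67 FPKM in AF replicates 1, 2 and 3, against 0.24 to 0.40 in PF and 3.53, 11.5 and 5.59 in AF with MNA. Igfbp1, which insulin represses, was at 36.6, 161 and 12.6 FPKM in AF, against 7.99 to 14.6 in PF and 15.9 to 25.5 in AF with MNA. For Pdk4 all 3 libraries of AF with MNA were above PF, among them replicate 1, the highest of its group in most lipogenic genes. The part of feeding state in the lipogenic levels was not tested.

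The 5 entries whose levels followed the mean profile of the 10 genes most closely over the 9 libraries, among 12248 entries, were Mrpl3 (Pearson r 0.957), Stk38 (0.940), Nfatc1 (0.930), Coq5 (0.917) and A230083G16Rik (0.910). The libraries share their groups and depths, and the values of r are a description. Coq5, a methyltransferase of coenzyme Q synthesis, was at 4.08, 2.95 and 7.00 FPKM in PF, at 6.87, 2.66 and 5.90 in AF, and at 6.39, 3.99 and 2.34 in AF with MNA. Its highest and lowest libraries in PF and in AF with MNA were those of Fasn.

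The genes around this pathway were taken from lists of related function. Of the 15 other targets of SREBP-1 and LXR in fatty acid and glycerolipid synthesis, all tested, 2 were lower past the threshold in AF against PF, against 2.35% of all genes, and 0 higher, against 1.95%. The median log2 FC was -0.05, against -0.03 over all genes. Without AF replicate 3, 1 was higher and 2 were lower. Both genes make polyunsaturated fatty acids. Fads2, the delta-6 desaturase, was at 257, 312 and 374 FPKM in PF, at 137, 109 and 153 in AF, and at 183, 193 and 184 in AF with MNA. Its AF libraries were all below those of both other groups, and it fell in AF against PF with a log2 FC of -1.24 (limma, adjusted p 0.105). Elovl5, the elongase of the same route, was at 86.3, 132 and 214 FPKM in PF, at 38.1, 51.0 and 76.8 in AF, and at 66.7, 38.3 and 57.7 in AF with MNA. It was lower past the threshold in AF, with a log2 FC of -1.38, and in AF with MNA against PF, with -1.41 (limma, adjusted p 0.294 and 0.227). In AF against PF the call of Elovl5 was lost without PF replicate 3, at -0.98.

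The sterol branch, controlled by the sister factor SREBP-2, had 10 of 10 genes lower on average in AF than in PF, with a median log2 FC of -0.88 against -0.03 over all genes. Of them, 3 passed the threshold as lower, against 2.35% of all genes. Among these were Hmgcs1 at the entry of the mevalonate pathway and Mvd further along it. Their log2 FC was -1.37 and -1.50, with limma adjusted p of 0.288 and 0.301. Mvd was at a low level and was not tested with a minimum mean of 2 FPKM, an alternative filter. Hmgcs1 was at 53.1, 24.1 and 24.1 FPKM in PF and at 15.1, 8.89 and 15.1 in AF, without overlap. In AF with MNA against PF 3 of the 10 were lower past the threshold (Hmgcs1, Mvd and Fdps), against 1.95% of all genes, with a median of -0.90 against -0.02 over all genes, and in AF with MNA against AF 0 were past it, with a median of -0.02. The count of 3 in AF against PF was 7 without AF replicate 3, 6 without PF replicate 3, and 2 when PF replicate 1 or AF replicate 2 was omitted. With the limma coefficient as fold change it was 1. In AF with MNA against PF the count of 3 was 1 without PF replicate 1, and 2 without PF replicate 2 or replicate 3 of AF with MNA. Hmgcs1 lost its call without PF replicate 1 in both comparisons with PF, at -0.89 and -0.99. Fdps lost it without PF replicate 1, PF replicate 2 or replicate 3 of AF with MNA, where the log2 FC was as small as -0.77.

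**Figure D4:**
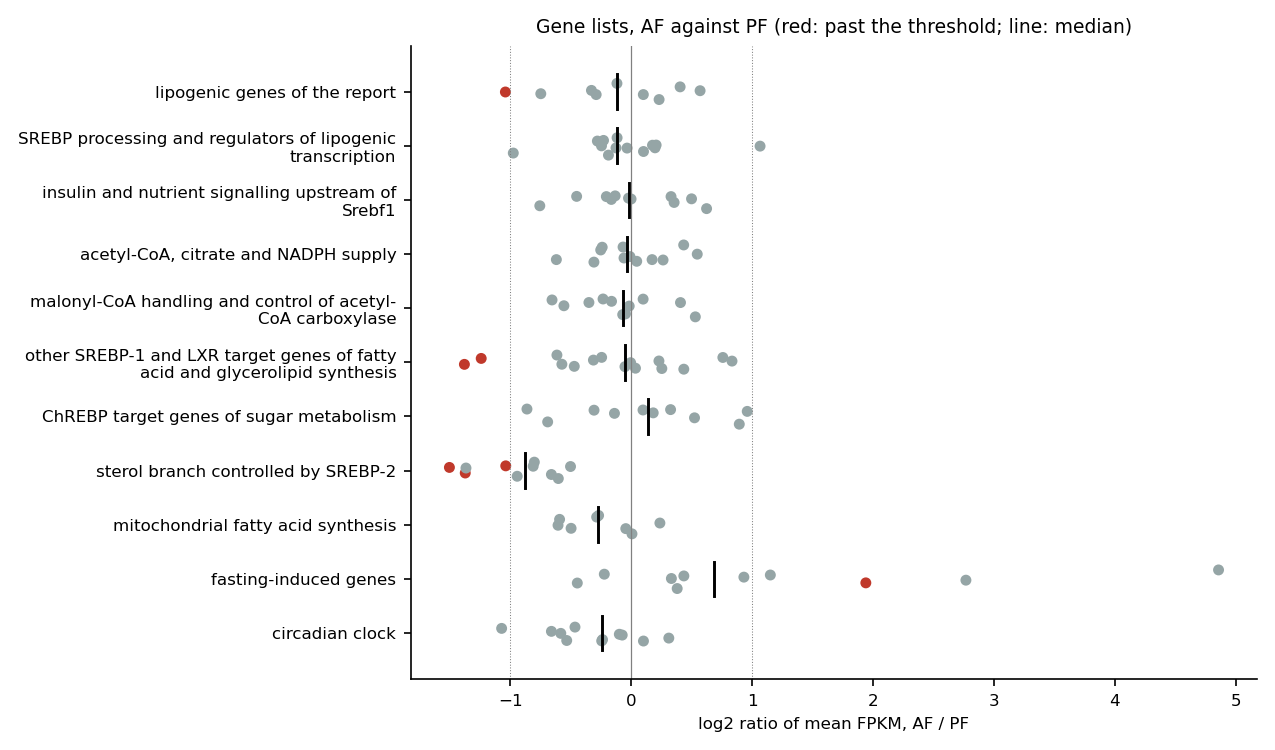
Log2 ratio of mean FPKM in AF over PF (horizontal axis) for the tested genes of each list (vertical axis), red where the gene passed the threshold, with a line at the list's median and dotted lines at -1 and 1. The sterol list lies wholly below 0 with a median of -0.88, whereas the 9 lipogenic genes lie on both sides of 0 with a median of -0.12.

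None of the tested genes passed the threshold in AF against PF among the regulators of SREBP processing and lipogenic transcription (13 tested), insulin and nutrient signalling (11), the supply of acetyl-CoA, citrate and NADPH (12), malonyl-CoA handling (11), ChREBP targets of sugar metabolism (10), mitochondrial fatty acid synthesis (8) and the circadian clock (11), against 4.29% of all genes. At an unadjusted limma p under 0.05 these lists held 1, 0, 0, 1, 2, 1 and 0 genes, against 11.7% of all genes. Without AF replicate 3, 1, 0, 1, 0, 1, 0 and 2 of their genes passed the threshold. Leaving out AF replicate 1 gave 1 gene each among the regulators, malonyl-CoA handling and ChREBP targets, leaving out PF replicate 2 gave 1 regulator and 1 gene of insulin signalling, and leaving out PF replicate 3 gave 1 regulator and 2 ChREBP targets. Libraries scaled to the same median gave 1 ChREBP target, and no filter on low values gave 1 clock gene. Insig1, which holds SREBPs in the endoplasmic reticulum and was chosen for naming after its values were seen, was at 59.9, 43.8 and 42.1 FPKM in PF and at 18, 21.3 and 34.8 in AF. Its log2 FC of -0.98 was just inside the limit, with an unadjusted p of 0.00934.

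Mid1ip1, a partner of Thrsp that activates acetyl-CoA carboxylase, was lower past the threshold in AF with MNA against PF. It was at 13.1, 8.43 and 11.8 FPKM in PF and at 6.42, 5.15 and 2.85 in AF with MNA, without overlap (log2 FC -1.21, limma adjusted p 0.196), and it lost the call without replicate 3 of AF with MNA or with all 9 libraries in the fit. Txnip, a ChREBP target, was higher, at 23.4, 24.8 and 34.8 FPKM in PF and 52.5, 73.0 and 45.8 in AF with MNA (log2 FC 1.05, limma adjusted p 0.156), and lost it without PF replicate 1, PF replicate 2 or replicate 2 of AF with MNA.

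Of 10 fasting-induced genes, 1 was higher past the threshold in AF against PF, against 1.95% of all genes, and 3 were in AF with MNA against PF, against 1.94%. The median log2 FC of the list was 0.68 and 0.57 in these comparisons. The first count was 2 without PF replicate 2 or AF replicate 2, and 3 without AF replicate 1 or AF replicate 3. It was also 2 with a pseudocount of 0.1 or with all 9 libraries in the fit. Cyp4a14, a fatty acid omega-hydroxylase, rose from 45.8 FPKM on average in PF to 176 in AF and 263 in AF with MNA, with log2 FC of 1.94 and 2.52 (limma adjusted p 0.155 and 0.0395). Acot1, an acyl-CoA thioesterase, was at 3.12, 5.07 and 4.82 FPKM in PF and at 20, 24 and 26.6 in AF with MNA, a log2 FC of 2.44 (limma adjusted p 0.0171). Pdk4 was higher in AF with MNA than in PF with a log2 FC of 4.50 (limma adjusted p 0.073). Acot1 was also higher in AF with MNA than in AF (log2 FC 1.29, limma adjusted p 0.94), the 1 gene of the list past the threshold there, against 1.03% of all genes, and a call lost without AF replicate 1, AF replicate 3, or replicate 2 or 3 of AF with MNA. Of the clock genes, which set a daily rhythm in lipogenesis, Arntl was higher in AF with MNA against PF (log2 FC 1.68, limma adjusted p 0.273) and Cry1 against AF (1.03, limma adjusted p 0.94). Arntl was at 0.20 to 0.28 FPKM in PF, under the minimum of 0.5 FPKM, and at 0.41 to 1.09 in AF with MNA. It was tested only through the group where it was high, so the filter itself favoured this call. Its call was lost without PF replicate 2, and it fell under the minimum and was not tested without replicate 2 or 3 of AF with MNA. The call of Cry1 was lost without AF replicate 1 or replicate 2 of AF with MNA. With the limma coefficient as fold change, 0 clock genes passed in these comparisons.

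Markers of other cells were at lower levels than those of hepatocytes. Fabp4, of adipocytes, was at 0.37 to 0.50 FPKM in PF and at 0.96 to 1.02 in AF, and Marco, a macrophage receptor, at 0.56 to 1.05 in PF and 1.10 to 2.77 in AF, both higher past the threshold, Marco only when neither PF replicate 2 or 3 nor AF replicate 1 or 2 was left out. With the limma coefficient as fold change neither passed. The PF mean of Fabp4 was under the minimum of 0.5 FPKM. Fabp4 was tested only through AF, where it was high, so the filter favoured its call. Fabp4 was the only adipocyte marker tested, and the other 4 markers tested of the Kupffer cell and macrophage list were lower on average in AF, with a list median log2 FC of -0.23. Alas2, of erythroid heme synthesis, fell from 40.6 to 11.2 FPKM on average with a log2 FC of -1.86, while the other 3 erythroid markers were higher on average and the list median was 0.29. The summed levels of the Kupffer cell list were 33.0 to 38.7 FPKM in PF and 21.8 to 39.1 in AF, and those of the erythroid list 332 to 450 and 293 to 650. The summed endothelial list was at 19.7 to 24.3 FPKM in PF and 24.9 to 36.2 in AF, and the summed cholangiocyte list at 3.27 to 4.31 and 4.86 to 9.12, both without overlap. The stellate list was at 29.0 to 29.9 and 26.0 to 36.3 FPKM, and the lymphocyte list at 1.10 to 1.49 and 0.91 to 1.17. The part of these cells in the level of Me1 was not tested.

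Noncoding RNA of the same loci gave a further readout. In the deposited table, 7 lncRNA transcripts lay inside a lipogenic gene (4), across an end of one (1) or within 10000 bases of one (2), at Mlxipl, Me1, Acaca and Fasn. Of those tested, 4, 4 and 6 in the 3 comparisons, none passed the threshold, and 0 had an unadjusted limma p under 0.05. Over all lncRNA transcripts 2.47%, 1.75% and 2.25% passed it in AF against PF, AF with MNA against AF and AF with MNA against PF. The highest was ENSMUST00000201067, on the opposite strand inside Mlxipl at chr5:135122410-135123293, with 5.98, 2.87 and 4.48 FPKM in PF, then 2.87, 1.02 and 6.04 in AF, with 2.20, 5.44 and 5.63 in AF with MNA. The groups overlapped, and without AF replicate 3 it was lower past the threshold in AF (log2 FC -1.19, unadjusted p 0.0436). The transcript across the start of Me1, ENSMUST00000150367 on the opposite strand, did not exceed 0.24 FPKM.

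Back-splice junction reads, which mark circRNAs, were found for 20 of the 4486 circRNAs in the table at 7 of the 10 genes, with 162 reads in all. Of these, 109 belonged to 1 circRNA of 5 Mlxipl exons at chr5:135121506-135124017. It had 16, 15 and 8 reads in PF, then 12, 11 and 15 in AF, with 0, 12 and 20 in AF with MNA. The other 8 libraries held between 8 and 20 reads, while replicate 1 of AF with MNA, the deepest library, held none, which allows up to 3 of its 82179248 reads. Mlxipl itself was at 24.6 FPKM in that library, within the range of the others. By edgeR's quasi-likelihood test the adjusted p of this circRNA was 0.998 in AF against PF, 0.981 in AF with MNA against AF and 0.958 in AF with MNA against PF. No circRNA passed an adjusted p under 0.05 in any comparison by edgeR or by DESeq2, with 20, 14 and 25 of 335, 320 and 337 tested at an unadjusted edgeR p under 0.05. Of the circRNAs of the lipogenic genes, 2, 2 and 3 could be tested. A circRNA of Me1 was among those under this limit in AF with MNA against PF, with 1, 1 and 3 reads in PF and 0 in each library of AF with MNA (unadjusted p 0.0455, adjusted p 0.638 by edgeR). It met the filter of presence in at least 3 libraries through PF alone, so the filter favoured this difference. By DESeq2 0 circRNAs of the lipogenic genes had an unadjusted p under 0.05.

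**Figure D5:**
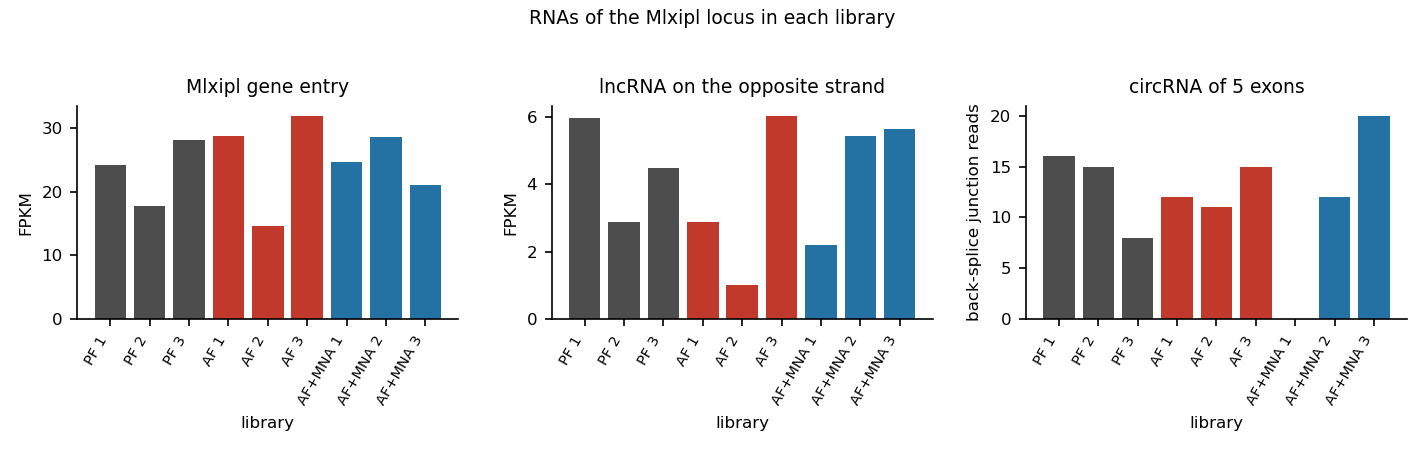
RNAs of the Mlxipl locus in each library, PF in grey, AF in red and AF with MNA (AF+MNA) in blue: the gene in FPKM, the lncRNA on its opposite strand in FPKM, and the junction reads of the circRNA of 5 exons. The circRNA had 0 reads in replicate 1 of AF with MNA and 8 to 20 in the other libraries, and the gene itself reached 24.6 FPKM there.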

How the data were processed

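Liver RNA-seq of 9 mice was analysed. Per the methods, the authors assembled transcripts and computed the FPKM of genes and lncRNA transcripts with StringTie. The submitters' processing notes name cutadapt 1.9, FastQC, HISAT2, StringTie 1.3.4, edgeR and TopHat. The genome build is not given in the sources used here, but 7708 of 7841 known lncRNAs had their GENCODE M21 (GRCm38) positions. The circRNA table as deposited holds counts of back-splice junction reads and a normalized signal. The reads of each library were recovered from the ratio of counts to signal, assuming 150-base reads.

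The value of each gene was taken from its entry with a known transcript, and 3 further entries, built from assembled transcripts alone, were reported apart. No entry of these genes merged another coding gene. For all named entries with a mean of at least 0.5 FPKM (lncRNA transcripts 0.1) over the 6 libraries compared, log2(FPKM + 1) was tested with limma 3.58.1 (lmFit, eBayes with trend) in R 4.3.3, with Benjamini-Hochberg adjustment over all entries tested. The threshold took the limits the methods state for lncRNAs tested with Ballgown, an unadjusted p under 0.05 and a log2 ratio of mean FPKM beyond 1 or -1. CircRNA counts present in at least 3 libraries were tested with edgeR 4.0.16 (glmQLFit), with DESeq2 1.42.0 as the alternative. The limma and edgeR fits were tried on simulated data, whereas DESeq2 was not.

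The genes and the lists were chosen with earlier results of these data known. The text names all 10 genes, at most 4 genes per list and comparison past the threshold, the defining cell markers, and the 5 entries most like the genes' mean profile. Insig1 and Igfbp1 were named outside this rule, after their values were seen. Of 165 listed genes 154 were present, each represented by its entry with the highest mean. Groups and replicate numbers came from the labels, which give separate samples. Over all genes, same-numbered libraries did not deviate together (correlations of -0.079 to 0.063), so no pairing was used. Promoter windows came from RefSeq for GRCm38.p6. The values of 1 listed gene are not reported here.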

Additional observations from a re-analysis of the deposited data

How the results depend on the processing

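Of 387 recomputed log2 fold changes of the 9 genes, each distinct fit counted once, 343 kept their direction and their side of the threshold, 4 lost the threshold, 2 gained it and 38 changed sign. Omitting the intron-rich libraries repeats 18 of these fits in the comparisons with PF, which hold 1 such library each. In 162 of them the log2 FC, a ratio of mean FPKM, could not move and only the p was tested again, and of the other 225, 181 kept direction and side. The 3 libraries per group and their spread limit these results, and for genes the tables give no counts. The cause of the changes below was not tested.

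The number of lipogenic genes past the threshold, 1 in AF against PF, was 0 to 1 with a replicate left out, and the log2 FC of Me1 was then -1.196 to -0.947. The number in AF with MNA against PF, 0, was 0 to 1 with a replicate left out and 1 without the intron-rich libraries, a setting chosen after seeing the data (Srebf1, -1.54). That of lncRNA transcripts at these loci in AF against PF was 0 to 1. With the replicate number as a block, the numbers of lipogenic genes stayed at 1, 0 and 0, the unadjusted limma p of Me1 in AF against PF was 0.00231 (its log2 FC cannot change under a block), and the numbers over all genes were 562, 260 and 489. The block moved the sterol list in AF with MNA against PF from 3 to 5 genes, and in AF against PF the fasting-induced list from 1 to 2 and the clock list from 0 to 1. Over all genes the replicate numbers did not pair the libraries. The 9 lipogenic genes, on average, deviated by -0.48 and 0.50 in PF replicates 2 and 3 and by -0.44 and 0.34 in those of AF. In AF with MNA these values were 0.06 and -0.51. Under the block, the unadjusted limma p in AF against PF went from 0.180 to 0.0377 for Srebf1 and from 0.0467 to 0.0786 for Acacb.

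Over all genes, 527 passed the threshold in AF against PF, and 1183 without the filter on low values, 265 with a minimum mean of 2 FPKM, and 249 with the limma coefficient as fold change, with 516 to 764 when a replicate was left out. The numbers in AF with MNA against AF were 242, and 676, 81 and 99 under these settings, 211 to 367 with a replicate left out and 470 without the intron-rich libraries. For AF with MNA against PF they were 477, and 1105, 228 and 229 under these settings and 467 to 545 with a replicate left out.

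With a replicate left out, the log2 FC changed sign within these ranges. In AF against PF they were -0.11 to 0.38 for Mlxipl, -0.81 to 0.065 for Acly, -0.012 to 0.46 for Acaca, -0.55 to 0.31 for Fasn and -0.76 to 0.18 for Scd1. In AF with MNA against AF they were -0.80 to 0.064 for Srebf1, -0.29 to 0.20 for Mlxipl, -0.11 to 0.81 for Acly, -0.39 to 0.25 for Acaca, -0.48 to 0.42 for Fasn and -0.19 to 0.51 for Thrsp. In AF with MNA against PF they were -0.082 to 0.24 for Mlxipl, -0.40 to 0.35 for Acly, -0.16 to 0.44 for Acaca and -0.60 to 0.30 for Fasn.

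Without the intron-rich libraries the sign changed for Mlxipl (-0.11) and Acaca (-0.012) in AF against PF, for Mlxipl (0.20), Acaca (-0.15) and Thrsp (-0.041) in AF with MNA against AF, and for Acaca (-0.16) in AF with MNA against PF. Scaled to the same median, Fasn was at 0.011 in AF with MNA against AF and Acly at 0.0096 in AF with MNA against PF. The limma coefficient in AF with MNA against AF was 0.045 for Mlxipl, -0.012 for Acaca and 0.032 for Fasn.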
